A study of Mus musculus with 16 samples.

Results

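The 9 genes described here are the co-activators Yap1 and Wwtr1 (Wwtr1 codes for TAZ), the DNA-binding partners Tead1 and Tead4, the target genes Ctgf, Cyr61 and Ankrd1, and the inhibitors Amotl2 and Lats2. They were taken by symbol from the 24341 genes listed in each of 16 libraries of RNA from sorted mouse muscle cells, and each of the 9 symbols was found once in every library. Values are FPKM, a read density scaled by transcript length and by the size of the library, so that levels can be set against each other between genes. The groups were p53KO_3dai (n = 3), p53WT_3dai (n = 3), p53KO_G2 (n = 2), p53WT_G2 (n = 2), p53KO (n = 3) and p53WT (n = 3). Per the labels all came from C57BL/6 mice of 2 to 3 months, with the genotype p53KO or p53 WT, and the cells were sorted for CD34 and alpha-7 integrin and against CD31, CD11b, CD45 and Sca-1. The 3dai groups came from the tibialis anterior and the other groups from hind limb muscles. In every contrast of 3dai with the groups that carry no suffix, or with G2, the state and the muscle cannot be told apart. What 3dai and G2 stand for is not written in the labels, which also name no knockout allele and do not say whether replicates are separate animals or pools, so every p measures the spread between these samples, which may be technical. A Duchenne model appears in the title of the series, and no sample carries a Dmd genotype in its labels.

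In the Hippo pathway the kinases MST1 and MST2 (genes Stk4 and Stk3) activate LATS1 and LATS2, which phosphorylate YAP and TAZ and keep them out of the nucleus. Unphosphorylated YAP and TAZ enter the nucleus, bind the TEAD proteins and switch on genes such as Ctgf, Cyr61 and Ankrd1, and also Amotl2 and Lats2, which act back on the pathway. In muscle stem cells YAP is known for promoting proliferation, and Tead4 is known as a gene that rises in myoblasts under the myogenic factor MyoD. RNA levels say nothing of phosphorylation or of where the proteins are in the cell.

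The genes lie, in GRCm38.p6 (mm10), at chr9:7931999-8004638 (Yap1), chr3:57455644-57575910 (Wwtr1), chr7:112679356-112906784 (Tead1), chr6:128227143-128300813 (Tead4), chr10:24595442-24598683 (Ctgf, now called Ccn2), chr3:145646971-145649985 (Cyr61, now called Ccn1), chr19:36111965-36119844 (Ankrd1), chr9:102717091-102733418 (Amotl2) and chr14:57689662-57746212 (Lats2). RefSeq promoters, 250 bases before to 50 bases after a transcription start, were matched for 6 of the 9 genes, and Tead1, Tead4 and Ctgf were not among them. The core TEAD motif GGAATG, or CATTCC on the other strand, was in at least 1 promoter of all 6 genes. Counted by promoter and not by gene, it was in 14.7% of 32851 RefSeq promoters of the same length. Wwtr1 and Lats2 have 2 promoters each, so these measures are not alike. The AP-1 motif TGANTCA, which reads the same on both strands apart from its middle base, was in none of the 6, against 7.81% of all promoters. A match of letters is a description and not a measured binding site, and a missing match says only that those letters were not in the window.

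The whole promoters are printed for Ankrd1 (chr19:36119795-36120094, minus strand), Cyr61 (chr3:145649936-145650235, minus strand) and Amotl2 (chr9:102717554-102717853, plus strand), because these target genes differed from each other in their changes between the groups. Each runs 5′ to 3′ on the strand of its gene, with the TEAD motif in capitals, GGAATG in Ankrd1 and its complement CATTCC in Cyr61 and Amotl2. In Ankrd1 the motif began 210 and 123 bases before the start, in Cyr61 103 bases before it and in Amotl2 65 bases before it.
Ankrd1: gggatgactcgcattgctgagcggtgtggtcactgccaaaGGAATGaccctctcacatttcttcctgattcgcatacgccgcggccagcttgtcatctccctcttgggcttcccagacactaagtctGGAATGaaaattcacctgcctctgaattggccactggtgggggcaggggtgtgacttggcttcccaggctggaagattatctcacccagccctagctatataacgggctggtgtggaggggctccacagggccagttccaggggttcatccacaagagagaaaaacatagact
Cyr61: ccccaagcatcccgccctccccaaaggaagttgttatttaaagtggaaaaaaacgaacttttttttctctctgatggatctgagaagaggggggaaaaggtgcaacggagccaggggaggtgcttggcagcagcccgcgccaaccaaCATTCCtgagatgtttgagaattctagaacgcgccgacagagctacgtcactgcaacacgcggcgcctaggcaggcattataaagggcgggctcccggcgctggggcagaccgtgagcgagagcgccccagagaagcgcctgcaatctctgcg
Amotl2: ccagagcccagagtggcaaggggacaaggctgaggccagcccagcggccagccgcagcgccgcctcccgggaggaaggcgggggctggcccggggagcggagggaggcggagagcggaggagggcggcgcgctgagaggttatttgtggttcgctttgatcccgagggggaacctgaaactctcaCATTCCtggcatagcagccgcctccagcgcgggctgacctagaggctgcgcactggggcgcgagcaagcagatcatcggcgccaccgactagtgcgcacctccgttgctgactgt

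For the other 3 genes a window of 60 bases shows the motif with its surroundings. The windows are those of the co-activators Yap1 (chr9:8004705-8004764, minus strand, motif 141 bases before the start) and Wwtr1 (chr3:57576014-57576073, minus strand, 136 and 170 bases before its 2 listed starts) and of the kinase Lats2 (chr14:57746087-57746146, minus strand, 5 bases after 1 of its 2 listed starts). The other listed start of Lats2 had no match.
Yap1: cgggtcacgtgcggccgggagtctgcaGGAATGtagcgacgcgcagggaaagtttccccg
Wwtr1: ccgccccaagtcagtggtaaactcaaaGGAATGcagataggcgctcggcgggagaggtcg
Lats2: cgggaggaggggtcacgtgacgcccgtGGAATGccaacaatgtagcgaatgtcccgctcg

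**Figure D1:**
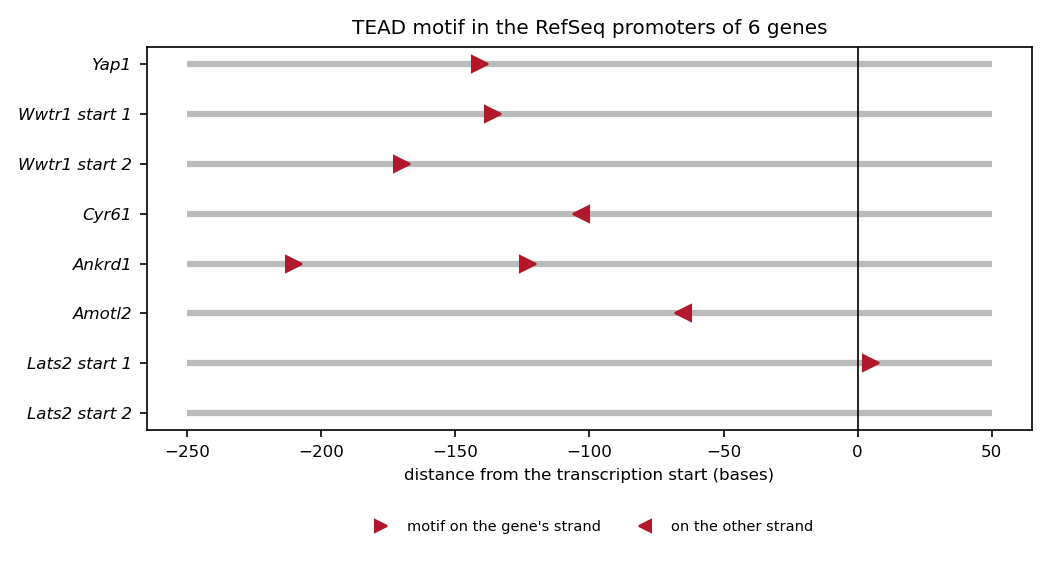
TEAD motif matches (red triangles, pointing right on the strand of the gene and left on the other strand) along the RefSeq promoters of 6 genes, with distance in bases from the transcription start on the x axis and 1 row per listed start. Matches in 5 of the genes lie before the start, between 210 bases (Ankrd1) and 65 bases (Amotl2), and that of Lats2 lies 5 bases after 1 of its starts.

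Each library had 10240 to 11574 genes at 1 FPKM or more. The files give no read totals and depth is unknown. All 9 genes passed the filter of at least 1 FPKM in 2 libraries, as did 12954 genes in all. Tead4 did so only through the groups with a suffix. Differences are on the scale log2(FPKM + 1), which understates the change of genes with low values, and are given with their standard error (SE). A gene is called where the adjusted p of limma, corrected by Benjamini-Hochberg over the 12954 genes, is below 0.05. Trp53 was lower in every p53KO library than in every p53WT library of the same suffix (6.34 to 12.2 against 39.9 to 53.9 FPKM with no suffix). Itga7 and Cd34, which were used in the sort, lay between 81.1 and 317 FPKM and between 27.1 and 140.3 FPKM, and the muscle stem cell gene Pax7 between 5.22 and 97.1 FPKM. Pax7 averaged 8.83 FPKM in p53KO_3dai and 6.77 in p53WT_3dai, against 51.0 in p53KO and 26.2 in p53WT. Of 11 muscle stem cell genes, 8 were called lower and 1 higher in 3dai in each genotype, against no suffix. Of all genes 22.7% were called lower in p53KO_3dai and 20.9% in p53WT_3dai. In G2 6 of the 11 were lower and 1 higher in p53KO_G2, and 5 lower and 2 higher in p53WT_G2. Of all genes 7.06% and 5.39% were lower there.

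Between 3dai and no suffix the genes of the pathway moved in different directions: Tead4 rose, while Yap1, Wwtr1, Ctgf and Cyr61 fell, and Tead1, Ankrd1, Amotl2 and Lats2 were not called. The calls were the same in p53KO and in p53WT. In p53KO_3dai against p53KO 1 of the 9 genes was called higher, where 30.4% of all genes were, and 4 were called lower, where 22.7% were. In p53WT_3dai against p53WT 1 of the 9 was called higher, where 31.8% of all genes were, and 4 lower, where 20.9% were. The median difference of the 9 genes was -0.58 in p53KO and -0.05 in p53WT, and that of all genes 0.14 in p53KO and 0.23 in p53WT. The share of the 9 that was called is near the share of all genes that was called, so the count itself is no result about the 9.

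In G2 against no suffix Tead4 rose and Ctgf and Cyr61 fell in both genotypes, and Amotl2 fell in p53KO. In p53KO_G2 against p53KO 1 of the 9 genes was called higher and 3 lower, where 22.5% of all genes were called higher and 7.06% lower. In p53WT_G2 against p53WT 1 was called higher and 2 lower, where 22.1% of all genes were called higher and 5.39% lower. The median difference of the 9 genes was -0.10 in p53KO and -0.20 in p53WT, and that of all genes 0.31 in p53KO and 0.33 in p53WT.

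Between genotypes none of the 9 genes was called. In p53KO_3dai against p53WT_3dai 0 of 9 were called, where 0.0849% of all genes were. In p53KO_G2 against p53WT_G2 0 of 9 were called, where 0.0695% were, and in p53KO against p53WT 0 of 9, where 0.00772% (only Trp53) were. At an unadjusted p below 0.05, limma had 1 of the 9 genes (Amotl2) in 3dai, 0 in G2 and 0 with no suffix. Of all 12954 genes tested, 1151 were below that limit in 3dai, 631 in G2 and 512 with no suffix. The 1 of 9 in 3dai is near the share of all genes. The median difference of the 9 genes was -0.11 in 3dai, -0.067 in G2 and -0.062 with no suffix. In G2, with 2 libraries a group, Yap1 and Tead1 were lower in both p53KO_G2 libraries than in both p53WT_G2 libraries and Wwtr1 was higher, none of them called. Of all genes tested 31.2% had no overlap between these groups, so 3 of 9 is near the background. A p above the limit does not show that the genotypes are alike.

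**Figure D2:**
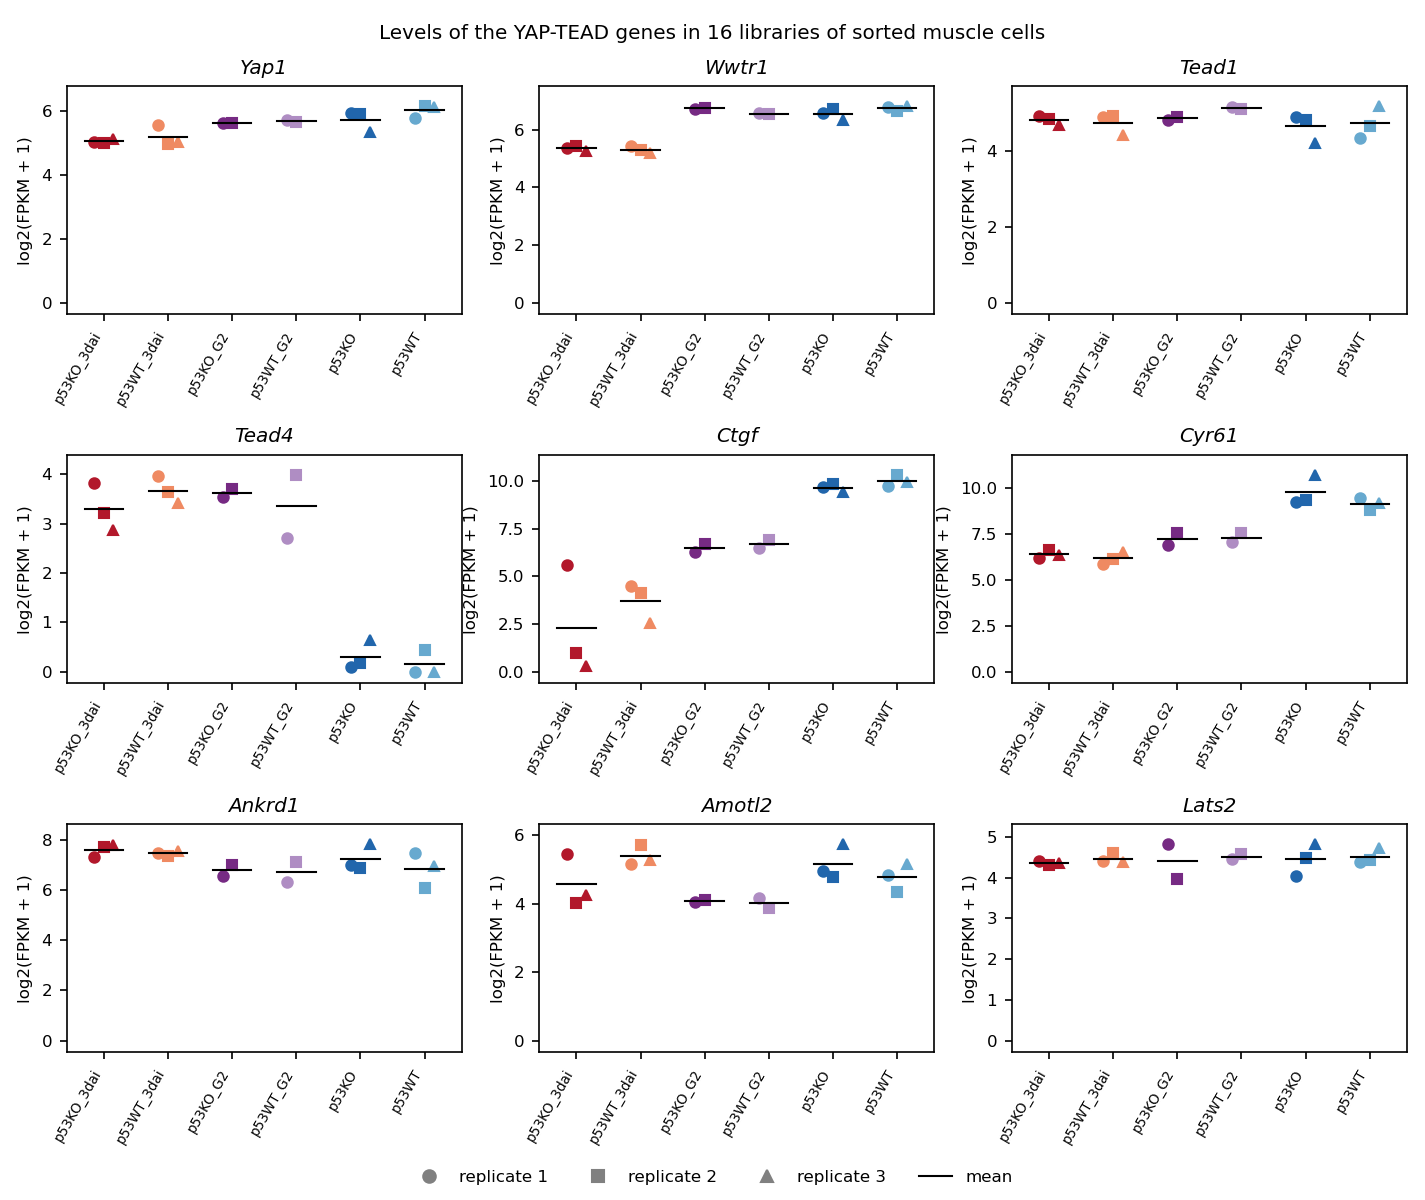
Level of each gene as log2(FPKM + 1) on the y axis, 1 point per library (circle, square and triangle for replicates 1, 2 and 3) and a black line at the group mean, with groups along the x axis. Tead4 lies at 0.554 FPKM or less in the libraries with no suffix and at 5.58 FPKM or more in all others, and Ctgf is lowest in 3dai, higher in G2 and highest with no suffix.

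The co-activator Yap1 had 31.3, 31.0 and 33.7 FPKM in p53KO_3dai and 46.3, 30.0 and 31.2 FPKM in p53WT_3dai. In G2 it had 47.6 and 48.3 FPKM in p53KO_G2 and 51.5 and 49.0 FPKM in p53WT_G2. The groups with no suffix had 59.3, 58.1 and 39.2 FPKM in p53KO and 53.5, 70.1 and 68.6 FPKM in p53WT. Every 3dai library lay below every library of its genotype with no suffix and below every G2 library, while replicate 3 of p53KO lay below both p53KO_G2 libraries. The difference of p53KO_3dai from p53KO was -0.67 (adjusted p 0.0117) and that of p53WT_3dai from p53WT was -0.84 (SE 0.20, adjusted p 0.00267). Yap1 was not called in G2 in either genotype. The call in p53KO was lost without p53KO replicate 1 (adjusted p 0.0546) or without p53KO replicate 2 (adjusted p 0.0502).

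Its paralogue Wwtr1 had 39.8, 42.1 and 37.8 FPKM in p53KO_3dai and 42.9, 38.5 and 35.4 FPKM in p53WT_3dai. In G2 it had 105 and 107 FPKM in p53KO_G2 and 94.3 and 92.6 FPKM in p53WT_G2. The groups with no suffix had 94.8, 105 and 80.3 FPKM in p53KO and 110.2, 99.3 and 113 FPKM in p53WT. The 3dai libraries stood apart from the other 10, with no overlap. The difference was -1.20 in p53KO_3dai against p53KO (adjusted p 6.65e-06), a 2.30-fold lower level, and -1.45 in p53WT_3dai against p53WT (adjusted p 1.03e-06), a 2.72-fold lower level. Wwtr1 was not called in G2. Per length, Wwtr1 was 1.12 to 1.36 times the level of Yap1 in p53KO_3dai and 0.926 to 1.28 times in p53WT_3dai. It was 2.21 to 2.23 times in p53KO_G2, 1.83 to 1.89 times in p53WT_G2, 1.60 to 2.05 times in p53KO and 1.42 to 2.06 times in p53WT. Wwtr1 was thus the more abundant of the co-activators in the G2 libraries and in those with no suffix, and closer to the level of Yap1 in 3dai.

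Tead1, which is expressed widely, had 24.7 to 29.3 FPKM in p53KO_3dai and 20.5 to 29.2 FPKM in p53WT_3dai. It had 27.0 and 29.0 FPKM in p53KO_G2, 34.6 and 33.7 FPKM in p53WT_G2, 17.7 to 28.9 FPKM in p53KO and 19.4 to 35.6 FPKM in p53WT. The p53WT_G2 libraries lay above all others but replicate 3 of p53WT (35.6 FPKM), the other groups overlapped, and Tead1 was called in no comparison.

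Tead4 was near 0 with no suffix and present in all other groups. It had 13.1, 8.30 and 6.28 FPKM in p53KO_3dai and 14.5, 11.5 and 9.63 FPKM in p53WT_3dai. In G2 it had 10.6 and 12.0 FPKM in p53KO_G2 and 5.58 and 14.9 FPKM in p53WT_G2. With no suffix it had 0.0597, 0.124 and 0.554 FPKM in p53KO, and in p53WT it was listed at 0 in replicates 1 and 3 and had 0.351 FPKM in replicate 2. The 4 groups with a suffix overlapped each other and none overlapped the groups with no suffix. Tead4 thus passed the filter only through the groups in which it was higher, so its calls are not independent of that filter. They held with no filter. The difference was 3.00 in p53KO_3dai against p53KO (SE 0.36, adjusted p 4.76e-06) and 3.53 in p53WT_3dai against p53WT (SE 0.36, adjusted p 9.58e-07). In G2 it was 3.32 in p53KO_G2 against p53KO (adjusted p 2.35e-05) and 3.21 in p53WT_G2 against p53WT (adjusted p 3.25e-05). The ratio of Tead4 to Tead1 was 0.254 to 0.446 in p53KO_3dai and 0.393 to 0.502 in p53WT_3dai. It was 0.391 to 0.414 in p53KO_G2, 0.161 to 0.442 in p53WT_G2, 0.00207 to 0.0313 in p53KO and at most 0.0146 in p53WT, so that Tead1 was more abundant than Tead4 in all 16 libraries. Genes of myogenic commitment, a list of 8 of which 6 were matched in the files, had a mean log2(FPKM + 1) of 3.66 to 4.18 in p53KO_3dai and 3.38 to 4.98 in p53WT_3dai, 5.95 to 6.67 in p53KO_G2 and 5.95 to 7.11 in p53WT_G2, against 3.45 to 4.08 in p53KO and 2.79 to 3.92 in p53WT. The mean covers genes that moved in opposite directions. Myod1, the gene of MyoD, had 205 to 255 FPKM in p53KO_3dai and 261 to 282 FPKM in p53WT_3dai, 161 and 174 FPKM in p53KO_G2 and 192 and 193 FPKM in p53WT_G2, against 390.2 to 1218 FPKM in p53KO and 961 to 1269.7 FPKM in p53WT. It was lower where Tead4 was higher in all 4 comparisons, with a difference of -1.76 in p53KO_3dai (adjusted p 0.000175), -2.02 in p53WT_3dai (adjusted p 5.14e-05), -2.26 in p53KO_G2 (adjusted p 0.000179) and -2.51 in p53WT_G2 (adjusted p 7.77e-05). Myog, the gene of myogenin, had 20.1 to 31.6 FPKM in p53KO_3dai and 5.78 to 44.4 FPKM in p53WT_3dai, 136 and 229 FPKM in p53KO_G2 and 162 and 303.9 FPKM in p53WT_G2, against 0.410 to 7.91 FPKM in p53KO and 0.181 to 10.0 FPKM in p53WT. It was called higher in all 4, by 2.91 in p53KO_3dai (adjusted p 0.00775), 3.00 in p53WT_3dai (adjusted p 0.00656), 5.75 in p53KO_G2 (adjusted p 0.000325) and 6.34 in p53WT_G2 (adjusted p 0.000144), although p53WT_3dai and p53WT overlapped. The part of these genes in the Tead4 values was not tested.

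Tead2, another member of the family, was higher in 3dai and G2 than with no suffix, as Tead4 was. Unlike Tead4, Tead2 had no overlap between 3dai and G2, with 3dai above. It had 36.6 to 57.2 FPKM in p53KO_3dai, 45.6 to 70.0 FPKM in p53WT_3dai, 29.0 and 34.3 FPKM in p53KO_G2 and 24.4 and 28.6 FPKM in p53WT_G2, against 1.54 to 9.93 FPKM in p53KO and 1.26 to 6.96 FPKM in p53WT. It was called higher in all 4 comparisons, by 3.38 in p53KO_3dai, 3.61 in p53WT_3dai, 2.87 in p53KO_G2 and 2.62 in p53WT_G2. Tead3 went the other way in 3dai, with 2.21 to 4.90 FPKM in p53KO_3dai and 3.44 to 5.60 FPKM in p53WT_3dai, against 18.3 to 39.8 FPKM in p53KO and 13.1 to 31.5 FPKM in p53WT. It fell by 2.56 in p53KO_3dai (adjusted p 2.56e-05) and by 2.14 in p53WT_3dai (adjusted p 0.00014) and was not called in G2.

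Ctgf, which codes for a secreted matrix protein and is a much used readout of YAP, had the largest difference of the 9 genes in 3dai in both genotypes as deposited. It had 47.6, 0.939 and 0.211 FPKM in p53KO_3dai and 21.4, 16.8 and 4.94 FPKM in p53WT_3dai. In G2 it had 77.4 and 105 FPKM in p53KO_G2 and 88.1 and 121 FPKM in p53WT_G2. With no suffix it had 824, 946 and 692 FPKM in p53KO and 862, 1306 and 1003 FPKM in p53WT. The groups with no suffix lay above the G2 groups and these above the 3dai groups, with no overlap between the 3, while both genotypes overlapped within each. Against no suffix Ctgf fell by 7.39 in p53KO_3dai (SE 0.93, adjusted p 8.72e-06), a 168-fold lower level on this scale. In p53WT_3dai it fell by 6.29 (SE 0.93, adjusted p 4.29e-05), a 78.1-fold lower level. The order of these folds depends on the scale. Mean FPKM went from 820 in p53KO to 16.2 in p53KO_3dai, and from 1057 in p53WT to 14.4 in p53WT_3dai. Over the alternatives the difference of p53KO_3dai from p53KO ran from -9.05 to -4.07 and that of p53WT_3dai from p53WT from -6.68 to -5.70. In G2 Ctgf fell by 3.16 in p53KO_G2 (SE 1.04, adjusted p 0.0321) and by 3.32 in p53WT_G2 (SE 1.04, adjusted p 0.0267). Both G2 calls were lost with a pseudocount of 0.1 and with no filter. The call in p53KO_G2 was also lost without any 1 of its 5 libraries (adjusted p up to 0.164), and that in p53WT_G2 without either p53WT_G2 library or without p53WT replicate 2 or 3 (adjusted p up to 0.140).

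The 3 libraries of p53KO_3dai differed from each other in Ctgf: replicate 1 lay above all p53WT_3dai libraries and replicates 2 and 3 below all of them. The difference of p53KO_3dai from p53WT_3dai was -1.46 (SE 0.93, adjusted p 0.705). Without p53KO_3dai replicate 1 it was -3.12 and was called (adjusted p 0.000719), and without replicates 2 and 3 it was 1.86 (adjusted p 0.58). The difference between genotype effects, 3dai against no suffix, was -1.10 for Ctgf (adjusted p 0.933), and -2.77 (adjusted p 0.0294) without p53KO_3dai replicate 1. For Amotl2 too replicates 2 and 3 lay below all p53WT_3dai libraries, while replicate 1 lay within their range: it had 43.1 FPKM in replicate 1 and 15.3 and 18.2 FPKM in replicates 2 and 3 of p53KO_3dai, against 34.9, 51.7 and 38.0 FPKM in p53WT_3dai. Its difference of -0.81 (adjusted p 0.488) became -1.25 (adjusted p 0.0311) without replicate 1 and 0.072 (adjusted p 1) without replicates 2 and 3. Over all genes 11 were called in this comparison and 512 (3.95%) without p53KO_3dai replicate 1.

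That replicate also stood apart in some lists of markers of other cells and not in others. The mean log2(FPKM + 1) of 10 Schwann cell markers was 2.27 in p53KO_3dai replicate 1, 1.14 in replicate 2 and 0.65 in replicate 3, against 1.22 to 1.61 in p53WT_3dai. For 10 pericyte and smooth muscle markers it was 1.83, 0.95 and 0.82 in p53KO_3dai, against 1.02 to 1.36 in p53WT_3dai. Tenocyte markers had 1.47, 0.995 and 0.735 in p53KO_3dai, against 1.003 to 1.368 in p53WT_3dai. Fibro-adipogenic markers did not separate it, with 1.40, 1.45 and 0.63 in p53KO_3dai against 0.86 to 1.47 in p53WT_3dai. Neither did endothelial markers, with 0.34, 0.04 and 0.29 against 0.26 to 0.51. Macrophage and leukocyte markers were lowest in it, with 0.16, 0.53 and 0.32 against 0.21 to 0.58. Lists that are not cell markers differed too. The mean of 18 immediate early genes, described below, was highest in replicate 1, with 4.90, 4.22 and 4.56 in p53KO_3dai against 4.54 to 4.76 in p53WT_3dai. That of 19 other YAP targets was 2.94, 2.55 and 2.53 in p53KO_3dai, against 2.65 to 3.10 in p53WT_3dai. The part of these cells or of the immediate early genes in the Ctgf and Amotl2 values was not tested.

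Cyr61, a paralogue of Ctgf that also codes for a secreted protein, had 73.7, 100.3 and 82.1 FPKM in p53KO_3dai and 58.6, 69.9 and 92.5 FPKM in p53WT_3dai. In G2 it had 119.8 and 185 FPKM in p53KO_G2 and 133 and 185 FPKM in p53WT_G2. Libraries with no suffix had 614, 653 and 1718 FPKM in p53KO and 702, 452 and 582 FPKM in p53WT. As for Ctgf, the order was no suffix, G2, 3dai from high to low, with no overlap between these and overlap of the genotypes within each. The 3 libraries of p53KO_3dai lay close together in Cyr61, unlike in Ctgf. Cyr61 fell by 3.37 in p53KO_3dai (SE 0.33, adjusted p 7.64e-07), a 10.3-fold lower level, and by 2.96 in p53WT_3dai (SE 0.33, adjusted p 2.81e-06), a 7.77-fold lower level. In G2 it fell by 2.56 in p53KO_G2 (adjusted p 0.000134) and by 1.85 in p53WT_G2 (adjusted p 0.00179). These 4 calls held in every alternative that was run. The ratio of Ctgf to Cyr61 was 0.00257 to 0.645 in p53KO_3dai, 0.0534 to 0.365 in p53WT_3dai, 0.57 to 0.647 in p53KO_G2, 0.657 to 0.66 in p53WT_G2, 0.403 to 1.45 in p53KO and 1.23 to 2.89 in p53WT.

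The highest Cyr61 value, 1718 FPKM, was in p53KO replicate 3, which also had the highest Ankrd1 (231 FPKM) and Amotl2 (52.8 FPKM) of all 16 libraries but not the highest Ctgf (692 FPKM). The same library had the highest mean of 18 immediate early genes, 9.11 on the log2 scale. Immediate early genes such as Fos and Egr1 are induced within minutes of a stimulus. Their mean was 4.22 to 4.90 in p53KO_3dai, 4.54 to 4.76 in p53WT_3dai, 6.05 to 6.77 in p53KO_G2, 6.49 to 6.64 in p53WT_G2, 8.08 to 9.11 in p53KO and 7.71 to 8.50 in p53WT. The list was called lower in 18 of 18 genes in p53KO_3dai against p53KO and in 17 of 18 in p53WT_3dai against p53WT, and in 12 of 18 in G2 in each genotype. Of all genes 22.7% were called lower in p53KO_3dai, 20.9% in p53WT_3dai, 7.06% in p53KO_G2 and 5.39% in p53WT_G2. The median difference of the list was -4.00 in p53KO_3dai, -3.32 in p53WT_3dai, -2.36 in p53KO_G2 and -1.51 in p53WT_G2. Its steps run with those of Ctgf and Cyr61, and its part in their values was not tested.

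Markers of other cells were low in 3dai, where 8 of 11 muscle stem cell genes were called lower too. In G2 only some of the markers of other cells were lower than with no suffix. In 3dai the called genes of the fibro-adipogenic, tenocyte, pericyte and Schwann lists fell, apart from 1 tenocyte marker in each genotype and 1 Schwann marker in p53WT_3dai. In p53WT_G2 against p53WT 5.39% of all genes were called lower. So were 0 of 10 pericyte, 0 of 10 tenocyte, 3 of 10 fibro-adipogenic and 5 of 10 Schwann markers. Their median differences were 0.55, -0.020, -0.74 and -1.05. In p53KO_G2 against p53KO 1, 6, 4 and 4 of 10 were called lower in the same order, where 7.06% of all genes were. The medians were -0.46, -1.13, -1.25 and -1.43. Called higher were 1 tenocyte marker in each genotype, 2 Schwann markers in p53WT_G2 and 1 in p53KO_G2. The summed FPKM of 10 fibro-adipogenic markers was 24.7 to 56.3 in p53KO_3dai and 31.9 to 50.2 in p53WT_3dai, 217 to 255 in p53KO_G2 and 305 to 320.2 in p53WT_G2, against 759.7 to 1016 in p53KO and 792 to 929 in p53WT. The sort against Sca-1, a surface protein of fibro-adipogenic cells, is set to remove these cells. Among the 10 markers of that list Pi16 and Clec3b, named after their values were seen, were listed at 0 in all 6 libraries of 3dai. No other marker of the list was at 0 in every library of either 3dai group. Pi16 was also at 0 in both p53KO_G2 libraries and Clec3b in both p53WT_G2 libraries. The sum of 10 Schwann cell markers was 8.43 to 70.3 in p53KO_3dai and 38.6 to 62.1 in p53WT_3dai, 151 to 154 in p53KO_G2 and 143 to 158 in p53WT_G2, against 382 to 387 in p53KO and 395 to 488 in p53WT. For 10 pericyte and smooth muscle markers the sums were 20.2 to 59.7 in p53KO_3dai and 26.9 to 46.1 in p53WT_3dai, against 393 to 579 in p53KO and 384 to 1002 in p53WT, and for G2 366 to 639 in p53KO_G2 and 668 to 774 in p53WT_G2. For 10 tenocyte markers they were 36.0 to 73.5 in p53KO_3dai and 39.1 to 86.2 in p53WT_3dai, against 281 to 426 in p53KO and 249 to 478 in p53WT, with 239 in both p53KO_G2 libraries and 483 to 562 in p53WT_G2. Endothelial markers, from cells the sort was set against, summed to 0.281 to 3.71 in p53KO_3dai and 3.12 to 6.60 in p53WT_3dai, against 27.6 to 36.8 in p53KO and 25.6 to 39.8 in p53WT, with 14.2 to 27.2 in p53KO_G2 and 23.1 to 30.3 in p53WT_G2. Fewer cells of a type and less RNA per cell cannot be told apart in these bulk libraries, and the part of the markers in the Ctgf and Cyr61 values was not tested.

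**Figure D3:**
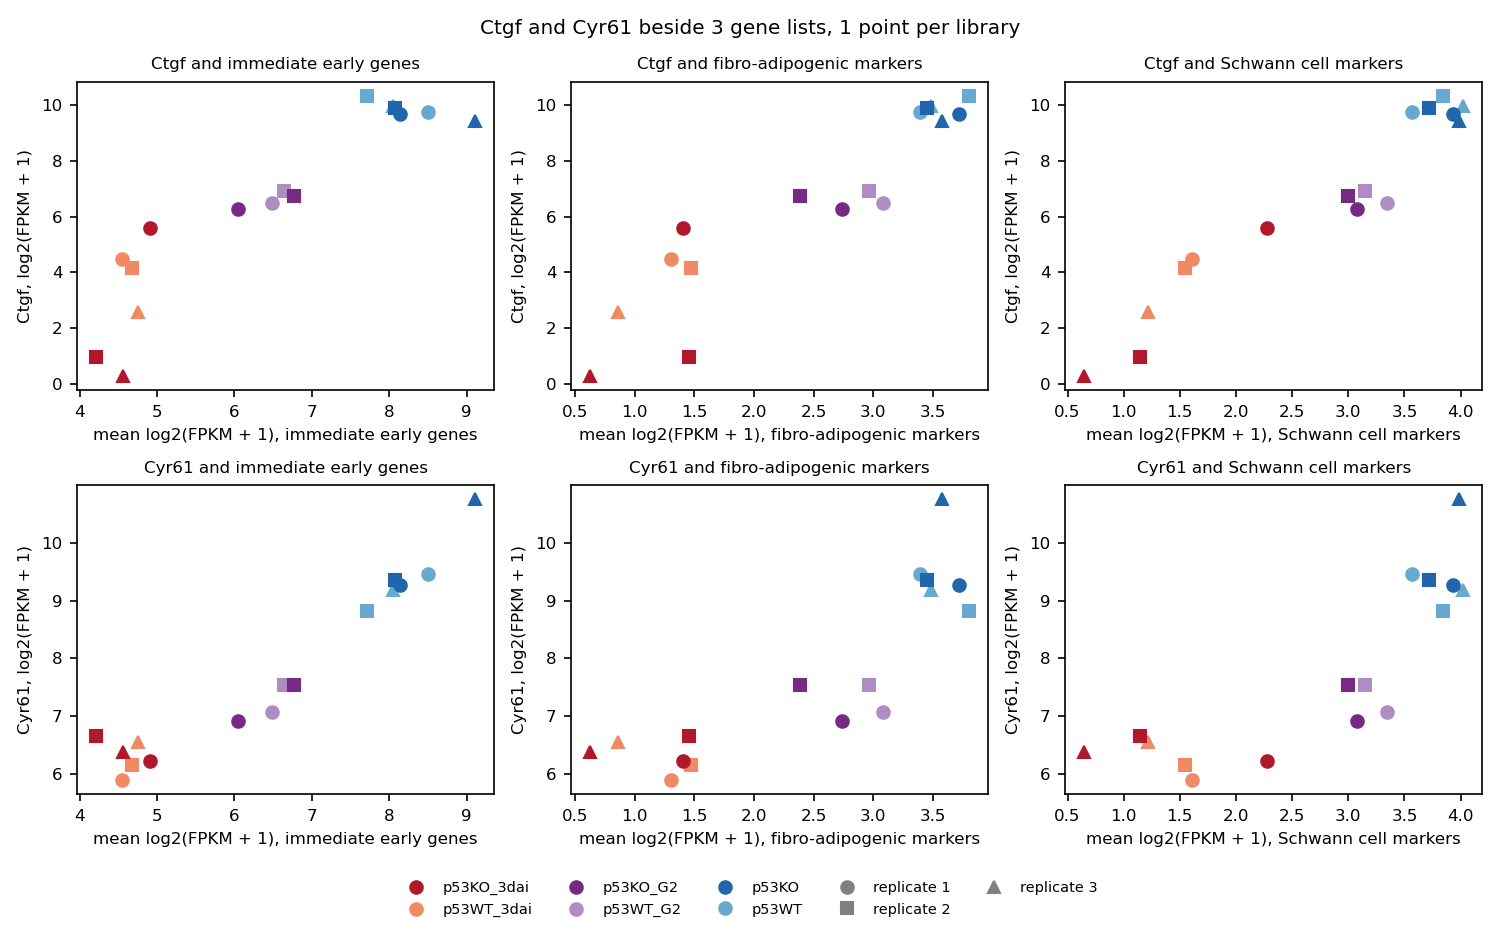
Ctgf (upper row) and Cyr61 (lower row) as log2(FPKM + 1) on the y axis against the mean log2(FPKM + 1) of 3 gene lists on the x axis, 1 point per library with colour for the group and shape for the replicate. Libraries of 3dai are low on both axes, those with no suffix high on both and those of G2 between, and p53KO_3dai replicates 2 and 3 have Ctgf of 0.939 and 0.211 FPKM. Of the lists not drawn, the muscle stem cell genes have the same order. Pericyte markers do not, with means of 4.64 to 4.87 in p53WT_G2, within the 3.99 to 5.06 of p53WT. Tenocyte markers in p53WT_G2 (4.05 to 4.26) also lie within p53WT (3.88 to 4.37).

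Ankrd1, a muscle ankyrin repeat protein, did not follow Ctgf and Cyr61. It had 159.7, 214 and 221 FPKM in p53KO_3dai and 179, 165 and 190.4 FPKM in p53WT_3dai. In G2 it had 93.1 and 129 FPKM in p53KO_G2 and 79.3 and 140.4 FPKM in p53WT_G2. With no suffix it had 129, 118 and 231 FPKM in p53KO and 181, 66.7 and 126 FPKM in p53WT. Neighbouring groups in the order of means overlapped, from p53KO_3dai at the top to p53WT_G2 at the bottom, while all 6 libraries of 3dai (159.7 FPKM or more) lay above all 4 of G2 (140.4 FPKM or less), a contrast that was not tested. As deposited Ankrd1 was called in no comparison.

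Amotl2, an angiomotin that binds YAP and holds it in the cytoplasm, had 15.7 and 16.1 FPKM in p53KO_G2 and 16.9 and 13.8 FPKM in p53WT_G2. With no suffix it had 30.0, 26.3 and 52.8 FPKM in p53KO and 27.6, 19.4 and 34.4 FPKM in p53WT. The G2 libraries lay below those with no suffix in both genotypes. The difference was called in p53KO_G2 against p53KO (-1.08, SE 0.39, adjusted p 0.0465), and not in p53WT_G2 against p53WT (-0.75, adjusted p 0.166). The call was lost in 9 of 14 alternatives, among them without p53KO replicate 3 (-0.79, adjusted p 0.15). In 3dai Amotl2 was not called in either genotype, except in p53KO_3dai without its replicate 1 (-1.02, adjusted p 0.0108), with array weights or under median-of-ratios scaling, although the 3 libraries of p53WT_3dai lay above those of p53WT.

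Lats2, the kinase that inhibits YAP and TAZ, had the narrowest range of the 9 genes, from 14.7 to 27.5 FPKM over all libraries. It had 18.8 to 20.1 FPKM in p53KO_3dai, 19.9 to 23.2 FPKM in p53WT_3dai, 27.4 and 14.7 FPKM in p53KO_G2, 20.9 and 22.9 FPKM in p53WT_G2, 15.6 to 27.5 FPKM in p53KO and 20.0 to 25.5 FPKM in p53WT. All neighbouring groups overlapped and Lats2 was called nowhere. Its paralogue Lats1 lay between 13.2 and 30.5 FPKM and was not called as deposited. In 3dai it was called lower under both scalings, by median-of-ratios with a difference of -0.69 in p53KO_3dai (adjusted p 0.0157) and -0.88 in p53WT_3dai (adjusted p 0.00373).

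**Figure D4:**
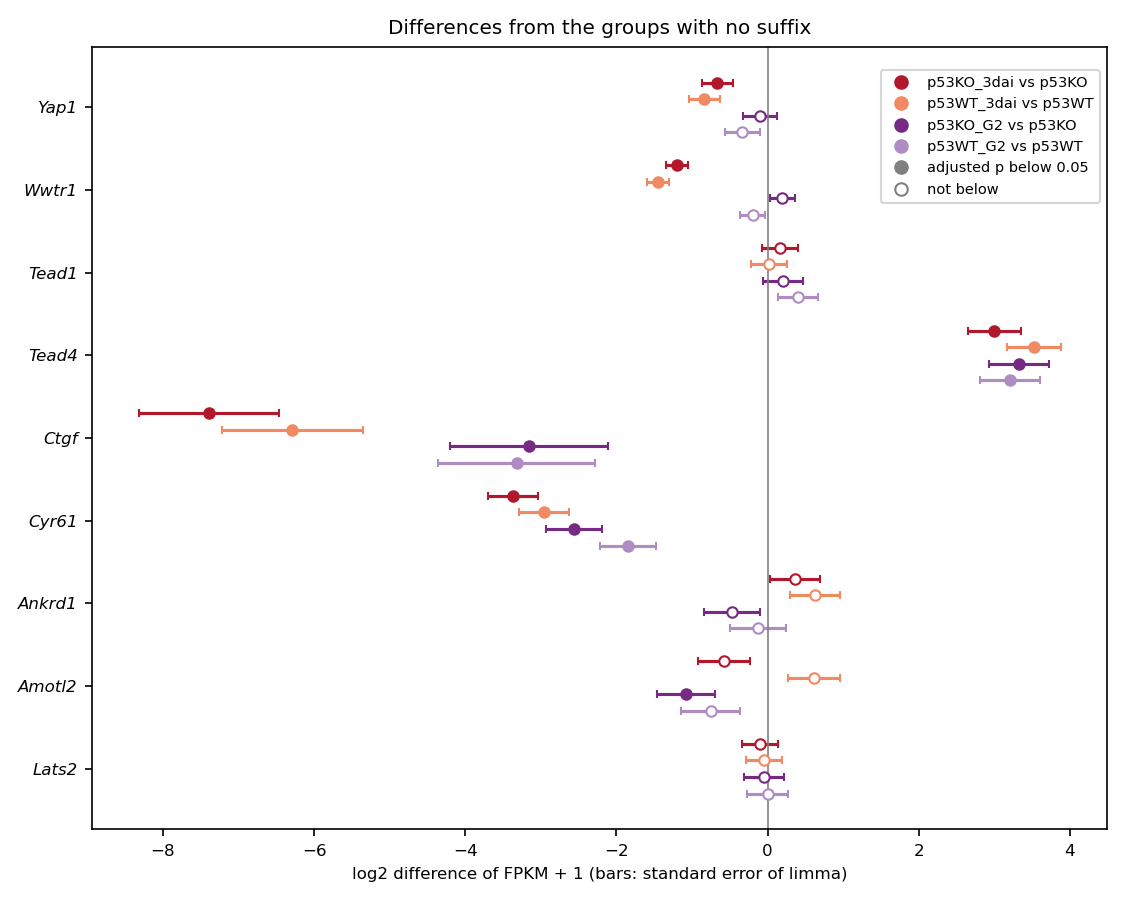
Difference of each gene on the log2(FPKM + 1) scale on the x axis, with bars for the standard error, in 4 comparisons (colours), filled where the adjusted p is below 0.05 and open where it is not. Tead4 lies between 3.00 and 3.53, Ctgf between -7.39 and -3.16, and Tead1, Ankrd1 and Lats2 have open points only.

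Scaling moves these differences. Median-of-ratios scaling moved the median of all genes by -0.23 in p53KO_3dai and -0.29 in p53WT_3dai, and by -0.34 in p53KO_G2 and -0.33 in p53WT_G2. Quantile normalization moved it by -0.093 in p53KO_3dai and -0.18 in p53WT_3dai, and by -0.33 in p53KO_G2 and -0.39 in p53WT_G2. The share of called genes that were higher was 57.2% as deposited, 45.0% under median-of-ratios scaling and 52.1% with quantile normalization in p53KO_3dai, and 60.4%, 46.1% and 51.1% in the same order in p53WT_3dai. In p53KO_G2 it was 76.1% as deposited, 49.2% under median-of-ratios scaling and 51.3% with quantile normalization, and in p53WT_G2 80.4%, 51.9% and 52.4%. The 17 calls of the 9 genes kept their direction and their call under both. Under median-of-ratios scaling the difference in p53KO_3dai was -0.99 for Yap1, -1.53 for Wwtr1, 2.84 for Tead4, -7.68 for Ctgf and -3.70 for Cyr61. In p53WT_3dai it was -1.24 for Yap1, -1.85 for Wwtr1, 3.33 for Tead4, -6.68 for Ctgf and -3.36 for Cyr61. In p53WT_G2, where they were not called as deposited, Yap1 (-0.76, adjusted p 0.0255), Wwtr1 (-0.63, adjusted p 0.0133) and Amotl2 (-1.16, adjusted p 0.0353) were called lower under that scaling, and so was Amotl2 in p53KO_3dai (-0.90, adjusted p 0.0354).

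Whether the change differed between genotypes was tested as an interaction. The interaction of genotype and 3dai was called in 0.00% of all genes (0 of 12954, with 777 at an unadjusted p below 0.05 in limma, 1 of them among the 9) and in 0 of the 9. The interaction of genotype and G2 was called in 0.0232% of all genes and in 0 of the 9. Comparisons with no suffix share their p53KO or p53WT libraries, so that 3dai and G2 differences are not independent of each other.

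The other genes of the pathway came from lists chosen for their roles. As deposited, 30.4% of all genes were called higher and 22.7% lower in p53KO_3dai, and 31.8% and 20.9% in p53WT_3dai. In p53KO_G2 these shares were 22.5% and 7.06%, and in p53WT_G2 22.1% and 5.39%. The counts of the lists are to be read beside these shares. Of 6 genes of the kinase core 1 was called higher and 0 lower in each of the 4 comparisons against no suffix. It was Stk4 in p53KO_3dai (1.46, adjusted p 0.00328) and Sav1, the adaptor of the MST kinases, in the others. The median difference of the 6 was 0.065 in p53KO_3dai, 0.21 in p53WT_3dai, -0.017 in p53KO_G2 and 0.040 in p53WT_G2. Sav1 had 53.4, 51.9 and 54.5 FPKM in p53WT_3dai against 35.0, 35.5 and 31.9 FPKM in p53WT (0.63, adjusted p 0.0436). Its calls were lost under both scalings, with its difference still above 0. Both scalings instead called Lats1 lower in p53KO_3dai and p53WT_3dai and Mob1a, a co-activator of the LATS kinases, lower in p53KO_G2 (-0.58 with quantile normalization, -0.72 under median-of-ratios scaling). Under both scalings the core then had 1 higher and 1 lower in p53KO_3dai, and 0 higher and 1 lower in p53WT_3dai and in p53KO_G2.

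Of 15 upstream regulators 4 were called higher and 6 lower in p53KO_3dai, and 2 higher and 5 lower in p53WT_3dai. In G2 3 were called higher and 1 lower in p53KO_G2, and 3 higher and 2 lower in p53WT_G2. The median difference was -0.10 in p53KO_3dai, -0.20 in p53WT_3dai, 0.15 in p53KO_G2 and 0.29 in p53WT_G2. In G2 the balance turned under scaling, and that of all called genes moved the same way. Their share that was higher went from 76.1% to 51.3% with quantile normalization and 49.2% under median-of-ratios scaling in p53KO_G2. In p53WT_G2 it went from 80.4% to 52.4% and 51.9%. Of the 15, p53KO_G2 had 1 higher and 2 lower with quantile normalization and 1 and 3 under median-of-ratios scaling. For p53WT_G2 it was 2 higher and 3 lower under both. The calls of Map4k4 in both genotypes and of Amotl1 in p53KO_G2 were among those lost. Ajuba, a LIM protein that inhibits LATS, had 19.9, 12.9 and 9.31 FPKM in p53KO_3dai and 27.9, 32.9 and 26.8 FPKM in p53WT_3dai, against 1.31, 1.14 and 3.60 FPKM in p53KO and 3.20, 1.26 and 1.24 FPKM in p53WT. It rose by 2.35 in p53KO_3dai, 3.44 in p53WT_3dai, 2.18 in p53KO_G2 and 2.16 in p53WT_G2. Limd1, of the same LIM family, fell in p53KO_3dai (-0.90), p53WT_3dai (-1.34) and p53WT_G2 (-0.80). Wwc1, known as KIBRA, was higher in 3dai at low levels, by 1.33 in p53KO_3dai and 1.50 in p53WT_3dai, with 0.799 to 2.77 FPKM in p53KO_3dai and 1.22 to 3.01 FPKM in p53WT_3dai against at most 0.179 FPKM in p53KO and 0.351 FPKM in p53WT. Like Tead4, Wwc1 passed the filter only through groups with a suffix. Frmd6 was 37.3 to 48.9 FPKM in p53KO_3dai and 34.3 to 50.5 FPKM in p53WT_3dai, against 114 to 201 FPKM in p53KO and 153 to 217 FPKM in p53WT, with a difference of -1.88 in p53KO_3dai and -1.99 in p53WT_3dai. The protocadherin Fat4 fell by 1.32 in p53KO_3dai and by 1.44 in p53WT_3dai.

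Of the 5 TEAD genes and Vgll cofactors tested, besides the 9, 1 was called higher and 3 lower in 3dai in each genotype. The Vgll proteins bind TEADs, and VGLL4 is known to compete with YAP. Besides Tead2 and Tead3, described above, Vgll3 had 10.2 to 19.6 FPKM in p53KO_3dai and 14.9 to 22.9 FPKM in p53WT_3dai, against 43.0 to 50.3 FPKM in p53KO and 38.5 to 56.0 FPKM in p53WT. Vgll4 had 5.75 to 16.0 FPKM in p53KO_3dai and 13.9 to 25.0 FPKM in p53WT_3dai, against 44.7 to 82.5 FPKM in p53KO and 34.0 to 73.7 FPKM in p53WT, with a difference of -2.46 in p53KO_3dai and -1.35 in p53WT_3dai. Vgll1 is listed at 0 in every library and was not tested. In G2 1 was called higher in each genotype, 2 lower in p53KO_G2 and 1 lower in p53WT_G2. The median difference of the 5 was -1.58 in p53KO_3dai, -1.33 in p53WT_3dai, -0.61 in p53KO_G2 and -0.22 in p53WT_G2.

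Other genes reported as YAP targets did not move one way. Of 19 tested, 3 were called higher and 10 lower in p53KO_3dai, 3 and 8 in p53WT_3dai, 5 and 3 in p53KO_G2, and 5 and 2 in p53WT_G2. Their median difference was -1.07 in p53KO_3dai, -0.76 in p53WT_3dai, 0.086 in p53KO_G2 and 0.015 in p53WT_G2. In G2 the balance depended on the scaling, as it did for all called genes. Here p53KO_G2 had 3 higher and 4 lower with quantile normalization and 3 and 5 under median-of-ratios scaling, and p53WT_G2 3 and 3 under both. Myof, a ferlin of the cell membrane, had 64.2, 91.1 and 98.4 FPKM in p53KO_3dai and 74.2, 76.6 and 50.7 FPKM in p53WT_3dai, against 5.31, 3.54 and 1.19 FPKM in p53KO and 1.79, 2.58 and 2.44 FPKM in p53WT. It rose by 4.41 in p53KO_3dai, 4.37 in p53WT_3dai, 3.54 in p53KO_G2 and 4.13 in p53WT_G2. Igfbp3, which binds insulin-like growth factors, rose by 3.32 in p53KO_3dai, 3.21 in p53WT_3dai, 3.12 in p53KO_G2 and 2.76 in p53WT_G2. Gadd45a, a stress gene that p53 is also known to induce, fell in all 4 comparisons, with a difference of -3.75 in p53KO_3dai, -3.06 in p53WT_3dai, -1.76 in p53KO_G2 and -1.54 in p53WT_G2. Crim1 fell too, with a difference of -2.92 in p53KO_3dai, -2.97 in p53WT_3dai, -1.92 in p53KO_G2 and -1.41 in p53WT_G2. Without p53KO replicate 3 the calls in p53KO_G2 were lost for Gadd45a (adjusted p 0.0694), Vgll3 (adjusted p 0.0571) and Vgll4 (adjusted p 0.0622). None of the genes in these 4 lists was called between genotypes in any state, but without p53KO_3dai replicate 1 Gadd45b was called lower in p53KO_3dai than in p53WT_3dai (-1.19, adjusted p 0.0212). No gene of these lists called as deposited was called in the opposite direction under either scaling.

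**Figure D5:**
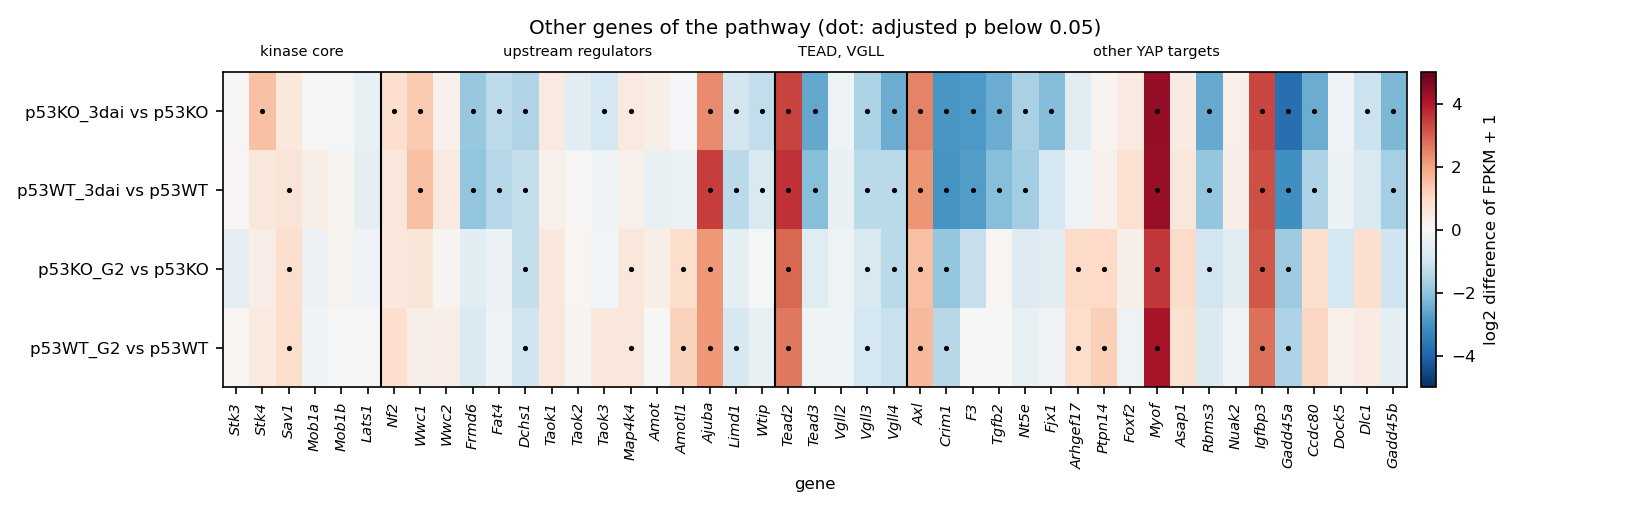
Differences of the other pathway genes on the log2(FPKM + 1) scale (colour, red higher and blue lower) in 4 comparisons (rows), with a dot where the adjusted p is below 0.05 and black lines between the 4 lists. Myof, Igfbp3, Tead2 and Ajuba are higher in all 4 rows, and Crim1 and Gadd45a are lower in all 4.

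Among 8217 genes with a mean of 5 FPKM or more, leaving out names of small RNAs, Gm and Rik genes, likeness to a gene was measured as the root mean square difference of centred log2 group means over the 6 groups. The 3 genes most like Yap1 were Tax1bp1 (0.0450), Wipf1 (0.0495) and Tank (0.0576). Wipf1, for example, had a mean of 32.3 ± 2.70 FPKM in p53KO_3dai and 32.3 ± 6.43 FPKM in p53WT_3dai, against 49.2 ± 13.2 FPKM in p53KO and 61.4 ± 6.90 FPKM in p53WT (SD, n = 3 each). The 3 most like Ctgf were farther from it: Arl4d (0.283), Fam132b (0.36) and Msc (0.382). Arl4d, a small GTPase, averaged 5.46 ± 5.47 FPKM in p53KO_3dai and 10.6 ± 4.45 FPKM in p53WT_3dai, 137 ± 33.8 FPKM in p53KO_G2 and 125 ± 22.7 FPKM in p53WT_G2, against 818 ± 231 FPKM in p53KO and 934 ± 56.1 FPKM in p53WT (SD). The 3 most like Ankrd1 were Asun (0.12), Rif1 (0.128) and Rpl37rt (0.129). With 6 group means, such likeness describes these groups only.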

How the data were processed

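Gene levels in FPKM are the authors' deposited values, in a table of 24341 genes for every library. The submitters' processing notes name STAR, Cufflinks, Cuffdiff and the build mm10, and give no tool versions. A directional NEBNext Ultra II kit was used on total RNA, per the labels. FPKM depend on the transcript models and on all other genes of a library, and read totals are unknown.

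The analysis used log2(FPKM + 1) and the 12954 genes that reached 1 FPKM in 2 or more libraries. A single limma model (version 3.58.1, R 4.3.3) with a variance trend held all 6 groups, and p-values were adjusted by Benjamini-Hochberg, with 0.05 as the limit for a call. The fit was also run on simulated data, with known changes placed only in genes of higher level and no library set apart. That run does not cover genes near 0, such as Tead4 with no suffix, or an outlying library. The interactions subtract the genotype difference of the groups without suffix from that of 3dai or of G2. Correlations of libraries within a group were 0.917 to 0.968. Deviations of libraries with the same replicate number correlated from -0.159 to 0.127 over 18 pairs, so the numbers were not taken to pair libraries.

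The genes and the lists were chosen with earlier results of these data known, and no p was adjusted over a list alone. Named besides the 9 genes are, from each pathway list, the 2 largest called rises and falls in p53WT_3dai against p53WT, together with Tead2, Tead3 and Lats1, and for Yap1, Ctgf and Ankrd1 the 3 genes most alike. Stk4, Limd1, Vgll3, Map4k4, Amotl1, Mob1a, Gadd45b, Myod1, Myog, Pi16, Clec3b, Fos and Egr1 were named after their values were seen. Promoters are from RefSeq (GRCm38.p6). Alternatives were median-of-ratios scaling, quantile normalization, array weights, a pseudocount of 0.1, no filter, a mean of at least 5 FPKM as the filter, the replicate number as a block, a model of the compared groups alone, values with a status other than OK set to missing, and each library left out in turn. Leaving out p53KO_3dai replicates 2 and 3 together, and list counts under the scalings or without p53KO_3dai replicate 1 or p53KO replicate 3, were added after the values had been seen.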

Additional observations from a re-analysis of the deposited data

How the results depend on the processing

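Of the 17 calls of the 9 genes, 13 held in every alternative run for them and 0 changed direction. Ctgf lost its call in p53KO_G2 against p53KO in 7 of 14 alternatives and in p53WT_G2 against p53WT in 6 of 14, Amotl2 in p53KO_G2 against p53KO in 9 of 14, and Yap1 in p53KO_3dai against p53KO in 3 of 16. Another 9 differences were called only under an alternative, among them Ankrd1 in p53KO_3dai against p53KO with array weights (0.70, adjusted p 0.0215) and in p53WT_3dai against p53WT without p53WT replicate 1 (0.95, adjusted p 0.0287). The causes were not tested.

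Of the 9 genes, 2 were called in p53KO_G2 against p53KO with a pseudocount of 0.1, where 26.2% of all genes were, and 2 with no filter, where 22.5% were. In p53WT_G2 against p53WT 6 were called under median-of-ratios scaling, where 24.4% of all genes were. In p53KO_3dai against p53WT_3dai 2 were called with array weights, where 6.21% of all genes were, with Ctgf at -2.90 (adjusted p 0.0155) and Amotl2 at -1.14 (adjusted p 0.0163). With each library left out in turn, 2 to 3 were called in p53KO_G2 against p53KO, 0 to 2 in p53KO_3dai against p53WT_3dai (3.95% of all genes at the upper end) and 0 to 1 in the interaction with 3dai (1.13% at the upper end).

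Over all genes, p53KO against p53WT had 5 calls with a pseudocount of 0.1, 3 with no filter, 2 with array weights and 0 from a limma fit of only the groups compared. In p53KO_3dai against p53WT_3dai there were 17 with a pseudocount of 0.1, 804 with array weights, 1 from only the groups compared and 2 (without p53WT_3dai replicate 3) to 512 (without p53KO_3dai replicate 1) with a library left out. In p53KO_G2 against p53WT_G2 there were 22 with no filter, 4 with the filter at a mean of 5 FPKM, 5 with array weights, 0 from only the groups compared and 3 to 6 with a library left out. In p53KO_G2 against p53KO there were 2112 from only the groups compared and 2095 (without p53KO_G2 replicate 1) to 3702 with a library left out, and in p53WT_G2 against p53WT 1826 (without p53WT_G2 replicate 2) to 3199. The interaction with 3dai had 1 call with a pseudocount of 0.1, 1 with no filter, 1 with array weights and 0 to 146 with a library left out. The interaction with G2 had 5 with a pseudocount of 0.1, 10 with no filter, 1 with the filter at a mean of 5 FPKM, 5 from only the groups compared and 1 to 3 with a library left out.

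With the replicate number as a block, 7 genes were called in p53KO_3dai against p53WT_3dai and 5 in p53KO_G2 against p53WT_G2, and Amotl2 in p53KO_G2 against p53KO was -1.02 (adjusted p 0.0728). The block changed no other call of the 9 genes.

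Without p53KO_3dai replicates 2 and 3, an alternative chosen after the values were seen in which the lone library is assumed to vary like the other groups, 3 genes were called in p53KO_3dai against p53WT_3dai and 4545 in p53KO_3dai against p53KO. Ctgf was then 1.86 in p53KO_3dai against p53WT_3dai (adjusted p 0.58) and 2.22 in the interaction with 3dai (adjusted p 0.799). Amotl2 was 0.072 in p53KO_3dai against p53WT_3dai and 0.30 in p53KO_3dai against p53KO (adjusted p 0.58). Read depth is unknown, so the precision of low values such as Tead4 with no suffix cannot be given.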
